A study of Homo sapiens with 4 samples.

Results

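The miRNA profiles of the HCT116 lineage (HCT116 and HCT116-R) were compared with those of the RKO lineage (RKO and RKO-R), with 2 libraries on each side. HCT116 and RKO are established human colorectal carcinoma cell lines, used here in their parental state. The radioresistant HCT116-R and RKO-R were selected from them by repeated irradiation with X-rays and were then grown for weeks without irradiation before the assays. All 4 libraries of the series entered the comparison, and the cell line was the contrast while the state (parental or radioresistant) was a block. Small RNA was cut from a gel, ligated to adapters that carry unique molecular identifiers and sequenced on the BGISEQ-500 platform. Each line gave 1 library, so a parental line and the line selected from it stood for 2 samples of a lineage although they share their origin. The p-values below therefore measure only the spread between these libraries. In bulk RNA, fewer cells with a miRNA and less of it in each cell cannot be told apart. Library totals lay between 6818497 and 7140460 counts, and 1474 miRNAs had a count in at least 1 library. Of these, 598 passed the filter on low counts and were tested, and 876 were not tested. Values of the 4 libraries are always given in the order HCT116, HCT116-R, RKO and RKO-R, and levels are counts scaled to a library total of 1000000 (CPM).

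A miRNA is cut from a hairpin whose 5p and 3p arms can both give a mature strand. Bases 2 to 8 of the mature strand, the seed, pair with target mRNAs, so miRNAs with one seed are read as a family even when their genes lie on different chromosomes. Hairpins that lie close together on one strand are often cut from a shared primary transcript. In epithelial cells the miR-200 family holds back ZEB1 and ZEB2, which repress E-cadherin, and its genes form separate clusters on chromosomes 1 and 12. Adapters join some miRNAs more readily than others, so a difference in level between miRNAs of 1 library may come from the library preparation, and shares within a seed group are given to be compared between libraries.

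The mature sequences below, from RefSeq on GRCh38.p14 and written 5′ to 3′ with the seed in capitals, show which miRNAs of the results share a seed. An entry was found for 529 of the 598 tested miRNAs. The members of the miR-200 family carry 2 seeds that differ by 1 base, and each seed is shared by miRNAs of both clusters.

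miR-200c-3p: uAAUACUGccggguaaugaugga

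miR-200b-3p: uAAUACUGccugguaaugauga

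miR-429: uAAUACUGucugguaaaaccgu

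miR-141-3p: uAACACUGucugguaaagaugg

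miR-200a-3p: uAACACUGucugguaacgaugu

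Across the 22 positions that both have, counted from the 5′ end, miR-141-3p and miR-200a-3p differed at 2 (A17C and G22U), and miR-200c-3p and miR-200b-3p differed at 2 (G11U and G22A). The other miRNAs that were almost limited to one lineage have seeds of their own, while those that follow after them belong to larger families in which single members differed between the lines.

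miR-375-3p: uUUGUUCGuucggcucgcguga

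miR-9-5p: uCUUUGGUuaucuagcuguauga

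miR-9-3p: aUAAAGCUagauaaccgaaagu

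miR-155-5p: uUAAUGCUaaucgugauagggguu

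miR-181a-5p: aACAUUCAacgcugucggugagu

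miR-181c-5p: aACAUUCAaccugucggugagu

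let-7a-5p: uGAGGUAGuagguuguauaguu

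let-7i-5p: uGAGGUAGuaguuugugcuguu

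miR-99a-5p: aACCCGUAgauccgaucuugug

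miR-100-5p: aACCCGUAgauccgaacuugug

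miR-148a-3p: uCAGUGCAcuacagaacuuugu

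miR-152-3p: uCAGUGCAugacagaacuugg

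miR-16-5p: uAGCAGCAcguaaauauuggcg

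miR-424-5p: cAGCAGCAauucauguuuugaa

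Over the compared positions, let-7a-5p and let-7i-5p differed at 4, miR-148a-3p and miR-152-3p at 3, and miR-99a-5p and miR-100-5p at 1 (U16A). Of all pairs shown, the last is the closest.

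More miRNAs were higher in the HCT116 lineage than in the RKO lineage. At an adjusted p under 0.05 in the quasi-likelihood test of edgeR, 132 of 598 tested miRNAs (22.1%) were called higher in the HCT116 lineage and 37 (6.19%) were called higher in the RKO lineage. The lines did not overlap, with both HCT116 libraries above both RKO libraries, for 252 miRNAs (42.1%), and the reverse held for 144 (24.1%). The excess of calls towards HCT116 did not hold for the most abundant miRNAs. At a mean of at least 1000 CPM, 6 were called higher in the HCT116 lineage and 7 in the RKO lineage, and at 100 CPM 21 and 11. Of the 132 and 37 calls, 33 and 4 had 0 counts in both libraries of the other lineage. The called miRNAs higher in the HCT116 lineage were mostly scarce, with a median level of 15.8 CPM in that lineage, and 23 of them reached 1000 counts in one of its libraries. Of those higher in the RKO lineage, with a median of 27.4 CPM there, 12 reached 1000 counts. Both sets nevertheless filled a similar part of the libraries. The 132 miRNAs held 18.8%, 16.3%, 2.47% and 3% of the counts. The 37 miRNAs held 2.9%, 4.08%, 18.9% and 20.3%, and let-7i-5p alone made up most of that in RKO and RKO-R.

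**Figure D1:**
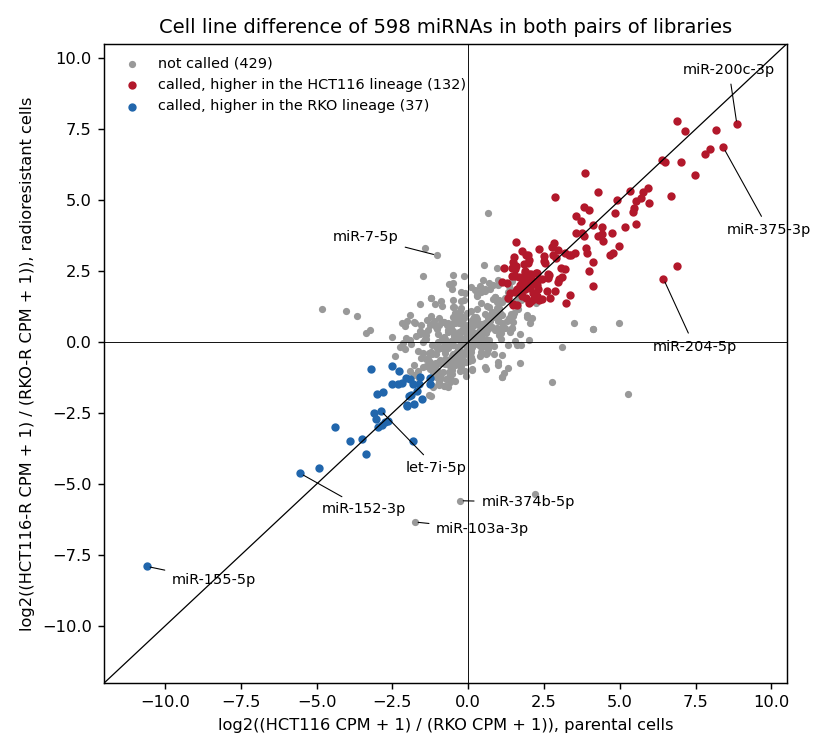
Line difference of the 598 tested miRNAs, as log2 of the ratio of CPM + 1, between HCT116 and RKO on the horizontal axis and between HCT116-R and RKO-R on the vertical axis. The 132 and 37 called miRNAs lie along the diagonal in the upper right and lower left, miR-155-5p and miR-200c-3p lie near the ends, and miR-7-5p, miR-103a-3p and miR-374b-5p, whose counts can be exchanged with an antisense miRNA, lie away from it.

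The difference between the lines was larger than the difference between parental and radioresistant libraries. When the sum of squares of log2(CPM + 1) over the 598 miRNAs was divided into parts, the cell line held 77.9%, the state 13.8%, and the remainder, by which the line difference changed with the state, 8.31%. For the 66 miRNAs with a mean of at least 1000 CPM the line held 53.9% and the state 42.5%, but 3 of those 66 belong to antisense pairs. Without them the line held 92.2% and the state 3.18%, a choice made after the values were seen. Of the 103 called miRNAs with a count in every library, 60 had line differences within 1 log2 unit of each other in the parental and the radioresistant pair.

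The number of calls was lowest without the parental RKO library. With 3 libraries the state could not be kept as a block, so each library was left out together with the block, the lone library of a lineage was assumed to vary like the pair of the other lineage, and 644 to 688 miRNAs passed the filter. With all 4 libraries and no block there were 142 and 50 calls. Without the parental RKO library and the block, 10 miRNAs were called higher in the HCT116 lineage and 1 in the RKO lineage, all of them called with 4 libraries too. These were miR-200c-3p, miR-200c-5p, miR-141-3p, miR-141-5p, miR-9-5p, miR-9-3p, miR-218-5p, miR-424-5p, miR-181a-2-3p and miR-1247-5p for HCT116 and miR-152-3p for RKO. Without it, 33 of the 42 called miRNAs that are followed individually here missed the threshold, with adjusted p between 0.0503 and 0.248. Without RKO-R there were 77 and 20 calls, and 15 of the 42 missed it. They were miR-10a-5p, miR-20b-5p, miR-29a-3p, miR-29b-3p, miR-29b-1-5p, miR-92b-3p, miR-122-5p, miR-130b-3p, miR-142-3p, miR-153-3p, miR-195-5p, miR-204-5p, miR-205-5p, miR-363-3p and miR-497-5p. Without HCT116-R there were 107 and 29 calls, and without HCT116 there were 136 and 36. Leaving out HCT116-R also ended the calls of miR-10a-5p, miR-29a-3p, miR-29b-3p, miR-130b-3p, miR-135b-5p, miR-142-3p and miR-153-3p, and leaving out HCT116 those of miR-29a-3p, miR-29b-3p, miR-29b-1-5p and miR-122-5p.

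The neighbours miR-200c and miR-141 marked the HCT116 lineage. A miRNA was taken as line-restricted when both libraries of one lineage had at least 1000 counts and both libraries of the other had under 1% of the lower of these levels. Of 129 miRNAs that were abundant enough in the HCT116 lineage, 7 (5.43%) were restricted to it, and of 121 in the RKO lineage, 1 (0.826%) was. Of the 7, 4 were the strands of the hairpins MIR200C and MIR141, which sit inside an intron of MIR200CHG, a long non-coding RNA gene, on the plus strand of chromosome 12. The mature miR-200c-3p lies at 6963742 to 6963764 and miR-141-3p at 6964155 to 6964176 (GRCh38).

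MiR-200c-3p had 291469, 286432, 649 and 1426 counts, or 42717, 42008, 90.9 and 206 CPM. Both HCT116 libraries were high and close to each other, and RKO and RKO-R were at 0.213% and 0.491% of the level in HCT116 and in HCT116-R (log2 fold change 8.17, SE 0.69, adjusted p = 0.00308 from edgeR). MiR-141-3p had 6630, 8320, 17 and 41 counts (log2 fold change 8.05, SE 0.72, adjusted p = 0.00308 from edgeR). The passenger strands were also far higher in both HCT116 libraries than in both RKO libraries. MiR-200c-5p had 1490, 1685, 4 and 3 counts and miR-141-5p had 1372, 1509, 5 and 0. In RKO, the 95% Wilson confidence interval of miR-200c-3p was 84.2 to 98.2 CPM and in RKO-R 196 to 217 CPM, so its level lay above the floor of 3 counts in both. The intervals cover counting error only, and 1 library of each does not show that RKO and RKO-R differ. In RKO, miR-141-3p, miR-375-3p, miR-9-3p and miR-9-5p stood at similar shares of HCT116, at 0.245%, 0.261%, 0.25% and 0.311%. In RKO-R they stood at 0.486%, 0.808%, 0.71% and 0.865% of HCT116-R. MiR-200c-5p went from 0.257% to 0.176% and miR-141-5p from 0.348% to 0%. Whether carry-over between libraries gave part of these counts was not tested.

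The cluster on chromosome 1 did not share this difference. MiR-200b-3p, at 1167160 to 1167181 on the plus strand and outside other annotated genes, had 956, 664, 616 and 626 CPM (log2 fold change 0.26, SE 0.49, adjusted p = 0.77 from edgeR). MiR-200a-3p had 2113, 1665, 1840 and 1586 CPM (log2 fold change 0.03, SE 0.44, adjusted p = 0.96 from edgeR), and the sign turned under DESeq2 size factors. MiR-429 had 15883, 12718, 7251 and 8836 CPM, which was higher in both HCT116 libraries but missed the threshold (log2 fold change 0.72, SE 0.46, adjusted p = 0.307 from edgeR). Summed by seed, the miR-200c-3p, miR-200b-3p and miR-429 group had 59556, 55391, 7958 and 9668 CPM. In that sum miR-200c-3p held 71.7% and 75.8% in the HCT116 lineage, and miR-429 held 91.1% and 91.4% in the RKO lineage. The seed of miR-200a-3p and miR-141-3p summed to 3084, 2886, 1842 and 1592 CPM, and miR-141-3p made up 31.5%, 42.3%, 0.129% and 0.373% of it. Both seeds thus stayed measurable in RKO through the genes on chromosome 1.

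Of the list of epithelial miRNAs, 3 of 7 tested members were called, all higher in the HCT116 lineage, against 22.1% of all tested miRNAs (median log2 fold change 0.72, against 0.19 over all). Of the 3, 2 come from the cluster on chromosome 12. The other was miR-205-5p, known from squamous and basal epithelia, with 795, 50, 0 and 2 counts, far higher in HCT116 than in any other library. MiR-205-5p passed the filter on low counts through the HCT116 libraries, which bears on the 3 of 7. MiR-203a-3p, a keratinocyte and epithelial miRNA, had 671, 686, 442 and 539 CPM and was not called (adjusted p = 0.626 from edgeR). The defining epithelial miRNAs other than those on chromosome 12 and miR-205-5p were therefore present in all 4 libraries.

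**Figure D2:**
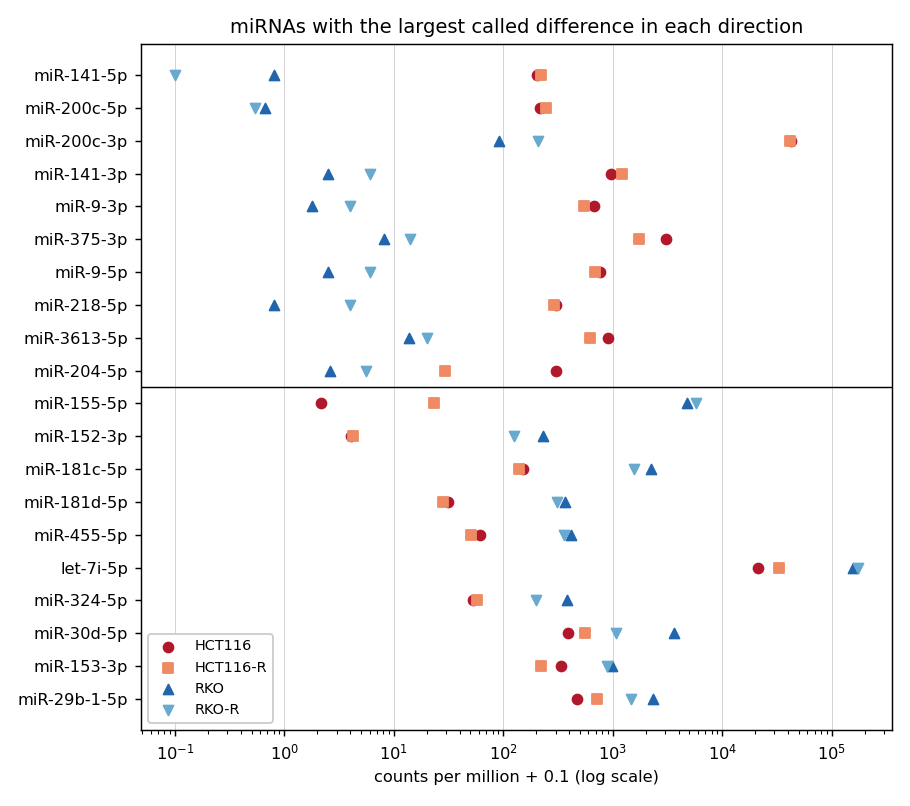
Levels of the 10 miRNAs with the largest called difference in each direction, in CPM + 0.1 on a log axis, with a marker for each of the 4 libraries and no error bar because each line had 1 library. MiR-200c-3p stands near 42717 CPM in HCT116 and at 90.9 CPM in RKO, and miR-155-5p, in the lower panel, at 2.05 CPM in HCT116 and 5728 CPM in RKO-R.

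Several miRNAs known from neurons and endocrine cells were also higher in the HCT116 lineage. Of 9 tested members of that list, 6 were called higher in the HCT116 lineage and 1 in the RKO lineage, against 22.1% and 6.19% of all tested miRNAs (median log2 fold change 6.18). Of the 6, miR-211-5p and miR-218-5p passed the filter on low counts through the HCT116 libraries, which bears on this count. MiR-9-5p and miR-9-3p are strands of the same hairpins and are not independent of each other. MiR-375-3p, which is abundant in pancreatic islet and enteroendocrine cells, had 20876, 11838, 57 and 97 counts. Its gene lies on the minus strand of chromosome 2, outside other annotated genes, with the mature strand at 219001648 to 219001669. It was line-restricted (log2 fold change 7.65, SE 0.78, adjusted p = 0.00314 from edgeR), though the call was lost without the parental RKO library.

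MiR-9-5p, a miRNA of neural progenitors encoded at 3 places in the genome (introns of C1orf61 and MIR9-3HG and an exon of LINC00461), had 5218, 4673, 17 and 41 counts. The other strand, miR-9-3p, had 4586, 3752, 12 and 27 counts. Both were restricted to the HCT116 lineage, with log2 fold changes of 7.45 (SE 0.78) and 7.74 (SE 0.80) and an adjusted p of 0.00314 each from edgeR. MiR-218-5p, which lies in introns of SLIT2 and SLIT3 and is known from motor neurons, had 2053, 1985, 5 and 27 counts (log2 fold change 7.21, SE 0.96, adjusted p = 0.00319 from edgeR). MiR-204-5p, in an intron of TRPM3, had 2076, 201, 18 and 38 counts, so HCT116 stood far above HCT116-R, which was itself above both RKO libraries. The call was close to the threshold (log2 fold change 4.52, SE 1.35, adjusted p = 0.0474 from edgeR). It was lost with DESeq2 size factors, library totals and a filter of 10 CPM (adjusted p = 0.0564, 0.0998 and 0.099 from edgeR), and the log2 fold change spanned 2.70 to 6.12 when a library was left out. The related miR-211-5p had 55, 40, 0 and 1 counts.

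MiR-153-3p was the member that moved the other way. It lies in an intron of PTPRN on chromosome 2 and had 2302, 1494, 6958 and 6141 counts (log2 fold change -1.88, SE 0.51, adjusted p = 0.0355 from edgeR). MiR-129-5p and miR-7-5p were not called. MiR-124-3p and miR-137-3p, which are typical of neurons, had at most 4 counts in any library and were not tested.

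Of the remaining miRNAs with the largest differences towards HCT116, miR-3613-5p had 6185, 4236, 98 and 139 counts (log2 fold change 5.39, SE 0.67, adjusted p = 0.00314 from edgeR). Further miRNAs were picked out after their values had been seen. MiR-181a-2-3p, the 3p strand of the MIR181A2 hairpin on chromosome 9, had 572, 579, 0 and 0 counts, which was at least 198-fold higher in the HCT116 lineage against a floor of 3 counts per library. The main strand, miR-181a-5p, is also made from MIR181A1 on chromosome 1 and had 4210, 5229, 4952 and 5579 CPM, so the total of the main strand did not show the difference of the minor strand (adjusted p = 0.713 from edgeR). MiR-1247-5p had 610, 624, 0 and 1 counts. MiR-130a-3p had 392, 290, 1 and 2 counts, a ratio of pooled counts of 234 with an exact 95% interval of 79.8 to 1138, while miR-130b-3p was called higher in the RKO lineage with 73, 56, 283 and 283 counts.

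MiR-155-5p was the only miRNA restricted to the RKO lineage. It is known from activated lymphocytes and macrophages and had 14, 157, 33913 and 39597 counts, or 2.05, 23, 4749 and 5728 CPM. RKO and RKO-R were close to each other, while HCT116-R had more counts than HCT116. The difference was the largest towards RKO among miRNAs with at least 1000 counts in a library (log2 fold change -9.56, SE 1.02, adjusted p = 0.00314 from edgeR). Without the parental RKO library its adjusted p was 0.0817 from edgeR. The other strand, miR-155-3p, had 0, 0, 38 and 41 counts and was at least 12.8-fold higher in the RKO lineage. Of the inflammation-linked list, miR-155-5p was the 1 called of 4 tested, against 28.3% of all tested miRNAs in either direction. MiR-21-5p had 120422, 90501, 92158 and 125963 CPM, with overlapping lines. MiR-146a-5p had 13.2, 19.8, 19.6 and 44.6 CPM and miR-146b-5p had 52.6, 39.7, 15.8 and 13.2 CPM, and neither was called (adjusted p = 0.273 and 0.0911 from edgeR).

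Let-7i-5p made the largest difference in counts. It had 145052, 224487, 1123761 and 1211694 counts, or 21259, 32923, 157379 and 175274 CPM, the highest count of any miRNA in RKO and RKO-R. Both RKO libraries were far above both HCT116 libraries (log2 fold change -2.75, SE 0.44, adjusted p = 0.00657 from edgeR). The let-7 miRNAs repress RAS and HMGA2 and are tied to a differentiated state, and let-7i-5p is made from 1 gene on chromosome 12 at 62603691 to 62603712, inside an intron of the lincRNA gene AC048341.1. It was the 1 called of 9 tested members of the let-7 and miR-98 list (median log2 fold change -0.33). Over all tested miRNAs 28.3% were called in either direction. Let-7a-5p had 36509, 37088, 34452 and 47000 CPM, let-7b-5p had 28202, 20162, 18949 and 16318 CPM, and neither was called (adjusted p = 0.768 and 0.625 from edgeR). Let-7f-5p, at 12728, 13354, 23525 and 32128 CPM, and let-7d-5p, at 8674, 6833, 14503 and 16649 CPM, were higher in both RKO libraries but missed the threshold (adjusted p = 0.103 and 0.128 from edgeR). The seed that all 9 share summed to 122878, 126039, 263980 and 306809 CPM, of which let-7i-5p held 17.3% and 26.1% in the HCT116 lineage and 59.6% and 57.1% in the RKO lineage. The lines did not overlap in this sum.

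MiR-152-3p was the only miRNA higher in the RKO lineage whose call did not depend on any one library. It lies in an intron of COPZ2 on chromosome 17, at 48037174 to 48037194, and had 27, 28, 1641 and 864 counts (log2 fold change -5.49, SE 0.66, adjusted p = 0.00314 from edgeR). It shares its seed with miR-148a-3p, which had 125, 101, 113 and 79.8 CPM, and with miR-148b-3p, which had 42.2, 34.2, 43.7 and 43.4 CPM. MiR-152-3p made up 2.32%, 2.95%, 59.4% and 50.3% of this seed group. MiR-148a-3p was not called, with an adjusted p of 0.887 from edgeR.

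The miR-181 family split by its genes. MiR-181c-5p and miR-181d-5p lie next to each other in an intron of NANOS3 on chromosome 19, at 13874725 to 13874746 and at 13874910 to 13874932. MiR-181c-5p had 1031, 940, 16026 and 10701 counts (log2 fold change -3.79, SE 0.50, adjusted p = 0.00319 from edgeR), and miR-181d-5p had 211, 190, 2589 and 2125 counts (log2 fold change -3.61, SE 0.56, adjusted p = 0.00558 from edgeR). In both, the 2 libraries of a line were close and the lines far apart. MiR-181b-5p had 668, 816, 1147 and 1226 CPM and was not called (adjusted p = 0.264 from edgeR). Of the seed group, which summed to 5060, 6211, 8706 and 8660 CPM, miR-181c-5p was 2.99%, 2.22%, 25.8% and 17.9%.

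Other abundant miRNAs were higher in the RKO lineage by smaller amounts. MiR-29a-3p and miR-29b-3p, which repress collagens and DNA methyltransferases, had 4800, 3712, 11394 and 10275 CPM and 1344, 2222, 4030 and 5159 CPM. Their log2 fold changes were -1.46 (SE 0.44, adjusted p = 0.0491 from edgeR) and -1.50 (SE 0.44, adjusted p = 0.0444 from edgeR), and each call was lost on leaving out any one library. With all 4 libraries they were also lost with DESeq2 size factors (adjusted p = 0.0608 and 0.0509 from edgeR) and library totals (adjusted p = 0.0522 and 0.0503 from edgeR). MiR-29c-3p, made from the cluster on chromosome 1, had 801, 709, 1080 and 1076 counts and was not called (adjusted p = 0.485 from edgeR). MiR-29b-1-5p, whose gene lies beside MIR29A on chromosome 7, had 3209, 4939, 16480 and 10098 counts (log2 fold change -1.76, SE 0.51, adjusted p = 0.0435 from edgeR). Its call was lost with library totals (adjusted p = 0.0748 from edgeR). MiR-455-5p, in an intron of the collagen gene COL27A1, had 419, 343, 2970 and 2489 counts (log2 fold change -2.90, SE 0.54, adjusted p = 0.0104 from edgeR).

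MiR-324-5p had 361, 391, 2723 and 1362 counts (log2 fold change -2.42, SE 0.56, adjusted p = 0.022 from edgeR). MiR-30d-5p had 2665, 3818, 25652 and 7385 counts, with RKO far above RKO-R (log2 fold change -2.17, SE 0.64, adjusted p = 0.0461 from edgeR). Its call was lost with library totals and at 10 CPM (adjusted p = 0.118 and 0.0843 from edgeR), and without the parental RKO library the log2 fold change was -1.42 (adjusted p = 0.119 from edgeR). MiR-30d-5p was the 1 called of 5 tested members of the miR-30 list (median log2 fold change -0.57), against 28.3% of all in either direction. MiR-598-3p, picked out after its values were seen, had 0, 1, 211 and 165 counts.

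The most abundant miRNA called higher in the HCT116 lineage was miR-100-5p, with 106921, 75074, 17672 and 21769 CPM. It is made from an intron of MIR100HG on the minus strand of chromosome 11, at 122152275 to 122152296 (log2 fold change 2.09, SE 0.49, adjusted p = 0.0224 from edgeR). The hairpins of let-7a-2 and miR-125b-1 lie in the same host gene. Their minor strands, let-7a-2-3p with 891, 842, 133 and 77 counts and miR-125b-1-3p with 2731, 2096, 397 and 182 counts, were called in the same direction, as was miR-125b-5p with 1193, 1276, 297 and 173 CPM. The paralogs at other loci did not follow. MiR-99a-5p, in MIR99AHG on chromosome 21, had 81.8, 77.6, 193 and 289 CPM, which was higher in the RKO libraries and missed the threshold (log2 fold change -1.67, SE 0.55, adjusted p = 0.0701 from edgeR). MiR-99b-5p, on chromosome 19, had 18793, 17535, 12328 and 13184 CPM (adjusted p = 0.554 from edgeR). Of the miR-99, miR-100 and miR-125 list, 2 of 5 tested were called higher in the HCT116 lineage, against 22.1% of all. MiR-99a-5p and miR-100-5p differ at 1 base, so a small part of the counts of either may belong to the other.

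Of 5 tested miRNAs of the HOX clusters, 1 was called, against 28.3% of all tested miRNAs in either direction. MiR-10a-5p lies in an annotated intron of HOXB3 and an annotated exon of HOXB4. It had 11645, 15479, 2961 and 3861 CPM and was called (log2 fold change 1.89, SE 0.44, adjusted p = 0.022 from edgeR). MiR-10b-5p had 839, 637, 1861 and 1872 CPM in the opposite order, with no overlap of the lines, and missed the threshold (log2 fold change -1.45, SE 0.47, adjusted p = 0.0651 from edgeR). MiR-196a-5p and miR-196b-5p, which repress HOX genes, had log2 fold changes of 0.02 and -0.48 and were not called.

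MiR-135b-5p, which represses APC and is often raised in colorectal tumours, had 7527, 10924, 1569 and 2739 CPM (log2 fold change 2.03, SE 0.45, adjusted p = 0.0188 from edgeR). With miR-375-3p it made up the 2 called of 6 tested members of the colorectal subtype list, a share near the 28.3% called in either direction over all tested miRNAs. MiR-31-5p, another member, had 35207, 14486, 16368 and 19633 CPM, so HCT116 stood apart and the lines overlapped. MiR-92b-3p had 3957, 5266, 1375 and 660 CPM (log2 fold change 2.16, SE 0.52, adjusted p = 0.0252 from edgeR). Its seed partner miR-92a-3p had 30832, 34521, 57444 and 39526 CPM in the opposite order and was not called (adjusted p = 0.332 from edgeR).

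Among the 1116 seeds of miRNAs with a sequence entry, 62 had a mean of at least 500 CPM. MiRNAs without an entry, such as miR-30d-5p, miR-10b-5p and miR-130a-3p, are left out of these sums. Without a test, 23 of the 62 were higher in both HCT116 libraries, 18 were higher in both RKO libraries and 21 overlapped. Over all tested miRNAs, 42.1% were higher in both HCT116 libraries and 24.1% in both RKO libraries. By the ratio of lineage means, the largest differences towards HCT116 were those of miR-375-3p, at 218-fold, of miR-584-5p, at 18.2-fold with 1109, 1370, 40.9 and 95.5 CPM, and of miR-149-5p, at 14.1-fold with 1454, 2279, 199 and 65.7 CPM. The miR-200b, miR-200c and miR-429 seed came next, at 6.52-fold. Towards RKO the seed of miR-155-5p was 418-fold higher, and those of miR-153-3p and miR-29b-1-5p were 3.35-fold and 3.15-fold higher. The let-7 seed was 2.29-fold higher in the RKO lineage, the miR-29 seed 2.53-fold and the miR-181 seed 1.54-fold, while the seed of miR-99 and miR-100 was 3.34-fold higher in the HCT116 lineage.

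**Figure D3:**
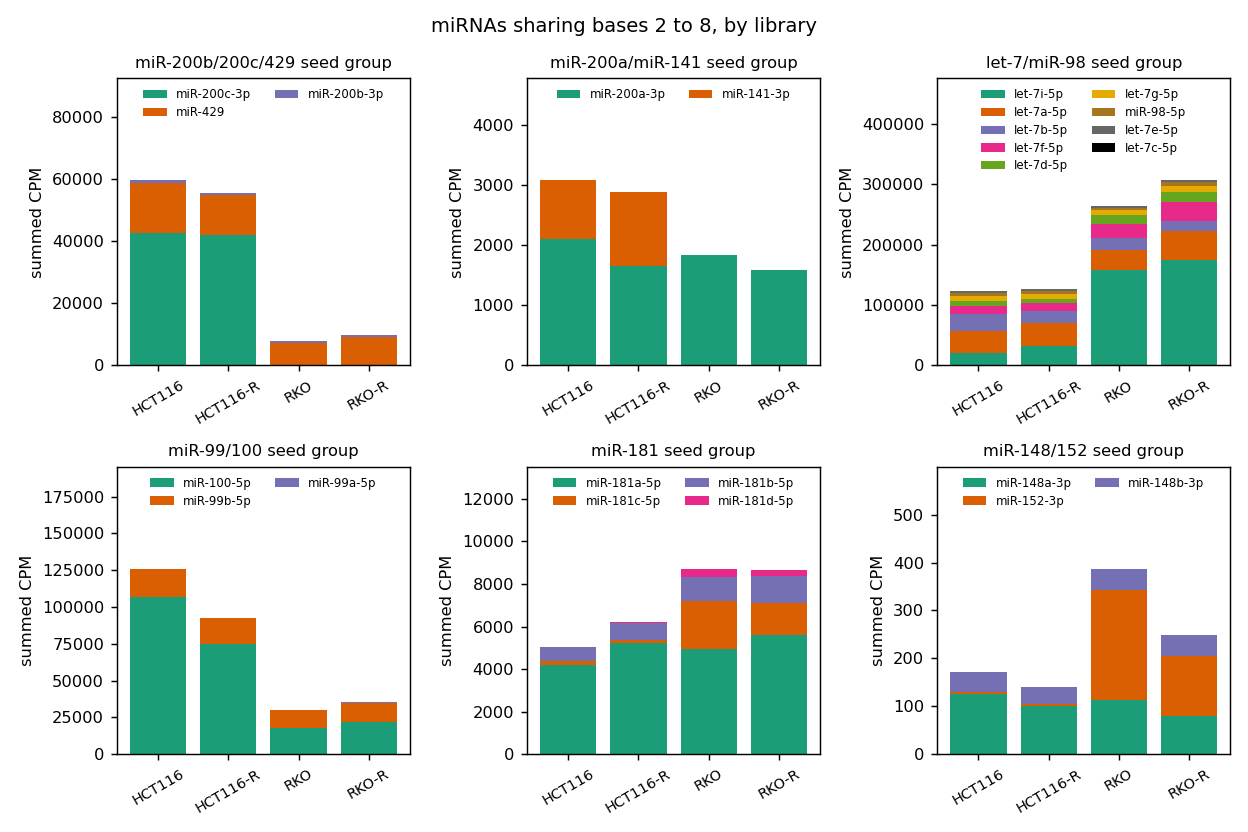
Summed CPM of 6 groups of miRNAs with a shared seed in the 4 libraries, stacked by member. The miR-200b, miR-200c and miR-429 group falls from 59556 CPM in HCT116 to 7958 CPM in RKO, where miR-200c-3p is 1.14% of it, and the let-7 group is larger in the RKO libraries, where let-7i-5p holds 59.6% and 57.1%.

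In some genomic clusters every tested miRNA was called, and many held no call. Hairpins within 10 kb of each other on one strand were joined, and 24 clusters held at least 3 tested miRNAs that are encoded nowhere else. In 5 of them every tested miRNA was called in one direction. These were the cluster of miR-200c and miR-141 (3 of 3, higher in HCT116), the miR-424 cluster on chromosome X (6 of 6), the miR-379 cluster on chromosome 14 (16 of 16), the miR-181c cluster (3 of 3, higher in RKO) and the cluster of miR-29a and miR-29b-1 (3 of 3, higher in RKO). In the last, the calls of miR-29a-3p and miR-29b-1-5p lay close to the threshold (adjusted p = 0.0491 and 0.0435 from edgeR). In the MIR143 cluster 2 of 3 were called and in the miR-100 cluster 3 of 4, and clusters such as MIR532 (8 tested), MIR221 and MIR15B (3 tested each) held no call. Over all tested miRNAs 22.1% were called higher in the HCT116 lineage and 6.19% in the RKO lineage. Members of a cluster can share a transcript and are not independent of each other. In the miR-379 and miR-424 clusters the tested members passed the filter on low counts through the HCT116 libraries. Their 16 of 16 and 6 of 6 therefore give no separate support for the direction. MiR-200c-5p and the called members of the MIR143 cluster, miR-145-5p and miR-145-3p, also passed the filter through the HCT116 libraries. MiR-181c-3p of the miR-181c cluster passed it through the RKO libraries. The filter bears on the counts of these clusters too.

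The miR-379 cluster, part of the imprinted 14q32 region that is expressed from the maternal chromosome, spans 101022066 to 101065991 on the plus strand for the tested members. It was scarce in the HCT116 lineage and nearly absent from the RKO lineage, with a sum of 134, 184, 1.12 and 2.31 CPM. Of its 16 tested members 9 had no count in either RKO library, and the median log2 fold change was 4.83 with these at their lower bound. Strands of its 40 hairpins that did not pass the filter are not counted. MiR-376c-3p had 199, 242, 0 and 1 counts and miR-379-5p had 109, 163, 2 and 2 counts, with a ratio of pooled counts of 70.1 and an exact 95% interval of 27 to 259. MiR-409-3p had 46, 58, 0 and 0 counts and was at least 17.9-fold higher in the HCT116 lineage. Of the 26 members of the 14q32 list 13 were tested. Of these, 12 were called higher in the HCT116 lineage, against 22.1% of all tested miRNAs. The list summed to 116, 149, 3.22 and 6.65 CPM. Its called members thus passed the filter on low counts through the HCT116 libraries, which bears on this count. MiR-127-3p, at a distance from the cluster in an intron of another non-coding gene, was the exception with 15, 39, 14 and 25 counts (adjusted p = 0.771 from edgeR). On chromosome 14 as a whole, 22 of 33 tested miRNAs were called higher in the HCT116 lineage and 0 in the RKO lineage by edgeR. Over all tested miRNAs these shares were 22.1% and 6.19%. The 22 include the 16 of the miR-379 cluster, so the filter bears on this count too.

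The miR-424 cluster on chromosome X, from 134540341 to 134546711 on the minus strand, summed to 209, 219, 0 and 1.59 CPM. MiR-424-5p had 875, 859, 0 and 4 counts, and its call was kept when any one library was left out. It shares its seed with miR-16-5p, which regulates the cell cycle and had 16038, 9283, 23660 and 18072 CPM, not called at an adjusted p of 0.211 from edgeR. MiR-503-5p had 30, 25, 0 and 0 counts, at least 9.44-fold higher in the HCT116 lineage. MiR-497-5p and miR-195-5p, which have the same seed and lie together in MIR497HG on chromosome 17, had 386, 141, 9 and 11 counts and 66, 40, 6 and 0 counts. Both were called higher in the HCT116 lineage, whereas miR-15a-5p, miR-15b-5p and miR-16-5p had fitted values towards RKO and were not called. MiR-497-5p and miR-195-5p passed the filter on low counts through the HCT116 libraries, which bears on this contrast. Within the seed group, the called members were the scarce ones, at most 1.18% for miR-424-5p.

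On the same chromosome, miR-363-3p had 91, 414, 0 and 0 counts and miR-20b-5p had 12, 41, 0 and 0 counts. They are members of the paralog of the miR-17-92 cluster and were at least 86.7-fold and at least 9.1-fold higher in the HCT116 lineage. Of 11 tested members of the miR-17-92 list these 2 were the only ones called, against 22.1% of all called higher in the HCT116 lineage. With 0 counts in RKO and RKO-R, both passed the filter on low counts through the HCT116 libraries. The rest had log2 fold changes between -1.50 and -0.06. In the MIR143 cluster on chromosome 5, miR-145-5p had 307, 221, 0 and 6 counts and was called, and miR-143-3p had 1733, 829, 51 and 522 counts and was not (adjusted p = 0.188 from edgeR), since RKO-R was nearer to HCT116-R than to RKO.

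**Figure D4:**
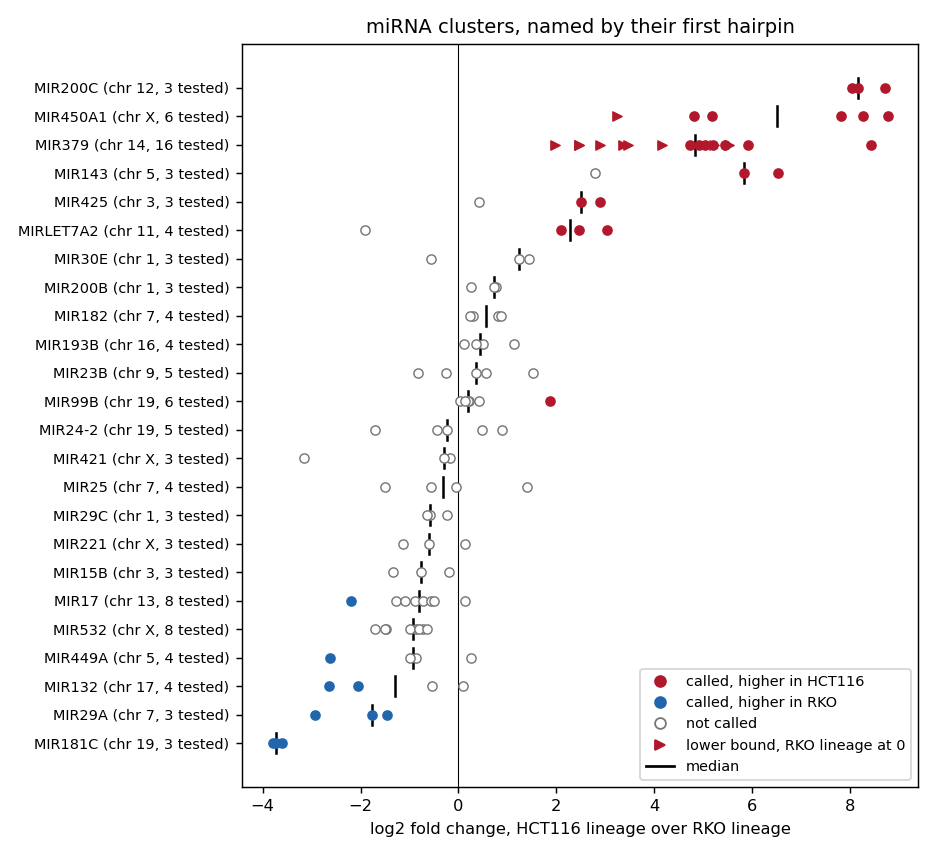
Log2 fold change of the HCT116 lineage over the RKO lineage for each tested miRNA of 24 clusters, named by their first hairpin, with the median as a bar, called miRNAs filled, and triangles for lower bounds where both RKO libraries had 0 counts. All points of the MIR200C, MIR450A1 (the miR-424 cluster) and MIR379 clusters are called towards HCT116, all of MIR181C and MIR29A towards RKO, and the medians of most other clusters lie within 2 units of 0.

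Among the most abundant miRNAs were some without a call. MiR-222-3p had 104655, 147221, 131162 and 85020 CPM, and miR-191-5p had 49193, 47893, 38028 and 30430 CPM. Their log2 fold changes were 0.13 (SE 0.45) and 0.41 (SE 0.42), with adjusted p of 0.874 and 0.536 from edgeR. MiR-21-5p, a widely raised tumour miRNA, overlapped between the lines (log2 fold change -0.15, SE 0.48, adjusted p = 0.863 from edgeR). So did miR-222-3p, whereas miR-191-5p was higher in both HCT116 libraries. A missed threshold does not show that these levels are equal. No member was called among 7 ubiquitous miRNAs, 7 of the CLCN5 intronic cluster (median log2 fold change -0.75) and 3 of the miR-183 cluster. The same held for 5 of the miR-23, miR-27 and miR-24 clusters and 2 of miR-221 and miR-222. Over all tested miRNAs 28.3% were called in either direction. Of the ubiquitous list, miR-103a-3p belongs to an antisense pair and had a log2 fold change of -4.21.

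Of 6 listed gut and p53-linked miRNAs 3 were tested, and none was called, against 28.3% of all tested miRNAs in either direction. MiR-192-5p had 226, 202, 220 and 323 CPM, and miR-194-5p had 112, 65.1, 75.2 and 119 CPM. MiR-34a-5p, a target of p53, had 17451, 19408, 10978 and 8182 CPM and an adjusted p of 0.202 from edgeR. Those not tested were scarce, and miR-215-5p had 3 counts in HCT116-R and 0 elsewhere.

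Markers of other tissues were low or mixed. Of 5 tested blood and vessel miRNAs 2 were called, both higher in the HCT116 lineage, against 22.1% of all, and the list summed to 3994, 3492, 8347 and 8031 CPM, nearly all of it miR-126-3p, an endothelial miRNA in an intron of EGFL7. MiR-126-3p had 3949, 3452, 8331 and 8018 CPM, higher in both RKO libraries and not called (adjusted p = 0.0818 from edgeR). MiR-486-5p, of red blood cells, had 117, 98, 2 and 1 counts, and miR-142-3p, of white blood cells, had 26, 66, 2 and 2 counts. These 2 called members passed the filter on low counts through the HCT116 libraries, which bears on their number and direction. The other red cell miRNA, miR-451a, had 12.5, 9.09, 7.56 and 4.63 CPM, and miR-144-3p had at most 2 counts. Of 6 tested mesenchymal and smooth muscle miRNAs 2 were called higher in the HCT116 lineage, not far from the 22.1% of all, namely miR-145-5p and miR-199b-5p, with 46, 23, 0 and 0 counts. Here too the 2 called members passed the filter through the HCT116 libraries. That list summed to 378, 166, 8.54 and 94.7 CPM, so it was lowest in RKO. Of 2 tested liver, heart and muscle miRNAs, miR-122-5p was called with 560, 62, 109 and 18 counts although the lines overlapped, and the call was kept in 4 of 12 other settings. The part of other cell types or carried-over RNA in these counts was not tested.

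Of the miRNAs of embryonic clusters, none was tested in the miR-302 and miR-371 list or in the miR-506 to miR-514 list. MiR-302a-3p had 7, 486, 0 and 1 counts, so it stood out in HCT116-R and did not separate the lineages. In the chromosome 19 cluster 1 of 14 members was tested, miR-522-3p with 1, 29, 17 and 47 counts, and was not called (adjusted p = 0.168 from edgeR).

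Of 4 antisense pairs, 2 separated the parental from the radioresistant libraries and not the lineages. MiR-423-5p lies on the plus strand of chromosome 17 in an exon of NSRP1 and had 20749, 95, 11237 and 10 counts. MiR-3184-3p, on the opposite strand at the same coordinates, 30117095 to 30117117, had 38, 13716, 50 and 13335 counts. The summed pair had 3046, 2026, 1581 and 1930 CPM. MiR-7-5p and its antisense miRNA miR-3529-3p together had 25356, 77249, 51517 and 50127 CPM. The sources do not state whether counting used strand, so whether reads of one member were counted for the other cannot be told from the counts, and none is taken as a line difference. MiR-103a-3p with miR-103b had 729, 534, 1112 and 1247 CPM together, and miR-374b-5p with miR-374c-3p 261, 207, 320 and 280 CPM, in both cases with more in the RKO libraries. In each of these pairs 1 library stood apart. MiR-103b held 94.5%, 97.5%, 87.4% and 8.06% of its pair, and miR-374c-3p held 37.2%, 98.7%, 37.4% and 38% of its pair.

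The use of hairpin arms differed between the lineages for a minority of hairpins. For 127 names with both arms and at least 100 counts in every library, the ratio of 5p to 3p counts was compared between the lines in the parental and in the radioresistant pair. It shifted by at least 1.5 log2 units in the same direction in both pairs for 12 (9.45%), and between parental and radioresistant libraries in both lineages for 3. Of the 12, miR-181d, miR-186 and miR-149 had at most 2 counts of the minor arm in any library, so their ratios were set by the 0.5 added to each count and show no shift. In 122 of the 127 names one arm led in all 4 libraries. The MIR579 hairpin, in an intron of ZFR on chromosome 5, gave 0, 0, 49 and 48 counts of miR-579-3p against 317, 468, 108 and 69 of miR-579-5p, so that the 5p arm held 100%, 100%, 68.8% and 59%. The 95% Wilson interval was 98.8% to 100% in HCT116 and 61.2% to 75.5% in RKO. MiR-92b gave 1.12%, 1.35%, 6.2% and 11.5% from its 5p arm, where miR-92b-5p had 45, 72, 90.9 and 86.1 CPM and was not called, in contrast to miR-92b-3p.

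For miR-425 the 5p arm held 87.1%, 88.7%, 97.1% and 97.8%, and miR-425-3p was called higher in the HCT116 lineage with 1017, 757, 148 and 86 counts while miR-425-5p was not called. For miR-455 the 5p arm rose from 42.5% and 51.3% in the HCT116 lineage to 68.8% and 78.2% in the RKO lineage. For miR-130b it was 95.3%, 95.9%, 80.4% and 80%. These are shares of reads of 1 library each, and their intervals cover counting error only.

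**Figure D5:**
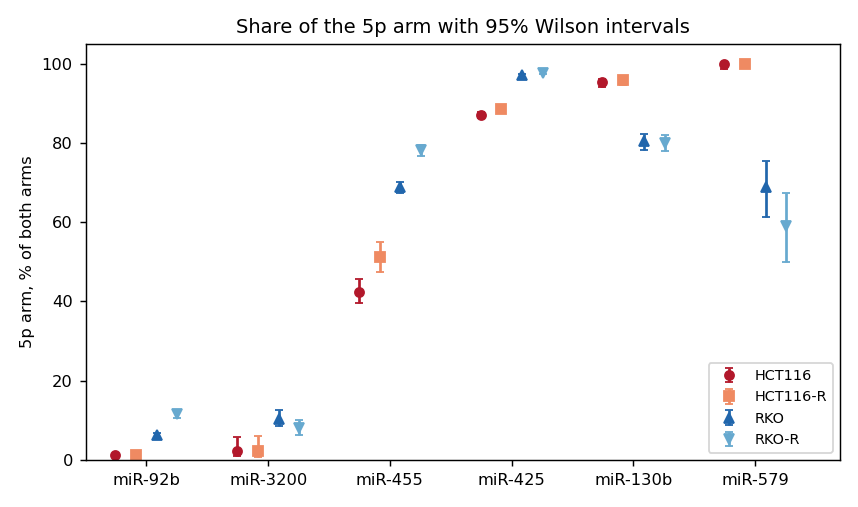
Share of the 5p arm among the counts of both arms for 6 hairpin names in the 4 libraries, in percent, with 95% Wilson intervals of counting error as bars. For each name the 2 libraries of a lineage lie near each other, as at 100% and 100% against 68.8% and 59% for miR-579.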

How the data were processed

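For each of the 4 libraries the authors deposited un-normalized counts by mature miRNA. Only miRNAs with a count are listed, and absent ones were set to 0. The submitters' processing notes name Bowtie2 and the build hg38. Which miRNA annotation was used, whether counting used strand and whether molecular identifiers were collapsed is not given in the sources used here. Groups were taken from the sample labels. Replicate numbers did not pair libraries.

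Counts entered edgeR 4.0.16 (R 4.3.3), where lineages were compared by quasi-likelihood F-test with TMM factors (0.898 to 1.05), filterByExpr by lineage, and state and lineage as terms, which left 1 residual degree of freedom. The estimated biological coefficient of variation (BCV) was 0.481 and the prior degrees of freedom 5.62. P-values were adjusted over all 598 miRNAs by Benjamini-Hochberg with a threshold of 0.05, and 218 had an unadjusted p under 0.05. SE is the absolute log2 fold change over the square root of F. Levels used library totals. The depths give a floor of 3 counts per library (0.42 to 0.44 CPM). Floors and intervals (95%) cover counting error only, and a share of a library had a half-width of at most 0.0375 percentage points. A fold against a lineage at 0 was set against the floor.

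Named miRNAs were, per direction, the 10 largest changes among called miRNAs with at least 1000 counts in a library and no overlap, and the 5 most abundant called, then the 5 most abundant not called, the line-restricted, and members of 26 lists. The members, lists and rules were chosen with earlier results of these data known. Clusters, seeds and host genes used RefSeq (GRCh38.p14) and GENCODE release 29. Arm ratios had 0.5 added to each count. The script was tested on simulated counts. Alternatives were DESeq2 (version 1.42.0) size factors and its Wald test, library totals, a likelihood ratio test at a BCV of 0.2, other filters, no block, summed antisense partners and leaving out each library together with the block. Computations used Python 3.11.15 with pandas 2.3.3 and scipy 1.17.1.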

Additional observations from a re-analysis of the deposited data

Results flagged for a closer look

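Among the named miRNAs and list members, 2 had line differences of at least 1 log2 unit in opposite directions in the parental and the radioresistant pair. Among tested miRNAs with a count in every library, 25 did so. MiR-7-5p had a log2 ratio of -1.03 between HCT116 and RKO and of 3.09 between HCT116-R and RKO-R, and it belongs to an antisense pair. MiR-30a-5p, with 8, 177, 36 and 30 counts in HCT116, HCT116-R, RKO and RKO-R, had log2 ratios of -2.10 and 2.58 in the same pairs. With 1 library per line, the difference between the pairs was not tested.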

How the results depend on the processing

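With 4 libraries and 1 residual degree of freedom, the number of calls depended more on the settings than their direction did. No miRNA called with all 4 libraries was called in the opposite direction under any of the 12 alternatives. The counts of miRNAs higher in the HCT116 and in the RKO lineage were 132 and 37. They were 106 and 21 with library totals, 75 and 36 with the DESeq2 test, 221 and 135 with a likelihood ratio test at a BCV of 0.2, and 67 and 30 with a filter of 10 CPM. The HCT116 share of the calls was 78.1%, against 67.6% with the DESeq2 test, 62.1% with the likelihood ratio test and 90.9% without the parental RKO library. Leaving out each library, which also dropped the state as a block because 3 libraries leave no residual degree of freedom with it, gave 10 to 136 and 1 to 36 calls, the lowest without the parental RKO library. Line-restricted miRNAs, 8 in all, numbered 23 at a limit of 100 counts and 8 to 9 when a library was left out. The median log2 fold change of all miRNAs, 0.19, ranged from 0.00 at 10 CPM to 0.43 without the parental RKO library, and was 0.09 with DESeq2 size factors and 0.29 with library totals. Replicate numbers only name libraries, and the block paired libraries by state; without it, 142 and 50 miRNAs were called.

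Over the named miRNAs, 855 values were computed under alternatives. Of these, 709 kept direction and call, 79 lost the call, 41 gained it and 26 reversed, all of them in miRNAs without a call except miR-122-5p, and the cause was not tested. The log2 fold change of miR-200a-3p was -0.06 with DESeq2 size factors, -0.06 with the DESeq2 test and -0.10 at 10 CPM. That of miR-222-3p was -0.00 at 10 CPM. That of miR-7-5p was -0.99 without the block and -0.30 with antisense partners summed. When each library was left out together with the block, so that the state difference enters the line difference, the values spanned -0.10 to 0.33 for miR-222-3p, -0.50 to 0.17 for miR-21-5p, -0.60 to 0.07 for let-7a-5p, -0.17 to 0.23 for miR-200a-3p, -0.05 to 0.54 for miR-200b-3p and -0.06 to 0.31 for miR-148a-3p. They spanned -0.44 to 0.98 for miR-127-3p and, for the called miR-122-5p, -0.04 to 3.88, the lowest without parental HCT116. In antisense pairs they spanned -6.22 to 8.04 for miR-7-5p, -5.84 to 9.79 for miR-423-5p, -7.63 to 7.15 for miR-3184-3p and -0.71 to 2.34 for miR-103b.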
